A study of Mus musculus with 18 samples.

Results

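The 10 genes described here make, sense or break down prostaglandins, leukotrienes and epoxy fatty acids, and were taken as a named list: *Ptgs1*, *Ptgs2*, *Ptges*, *Ptgds*, *Ltc4s*, *Ptger1*, *Ptger3*, *Ptger4*, *Hpgd* and *Ephx2*. They are 10 of 78239 genes listed in the count tables, and all 10 were found by their GENCODE identifiers. The data are RNA-seq of kidney from 18 wild-type CD-1 mice, an outbred stock, at 6 wk of age. Dams ate a low protein (LP, 8% protein) or a normal protein (NP, 18% protein) diet of equal calories through gestation and lactation, with more sucrose in the LP diet, and every offspring ate the NP diet after weaning. The groups were 5 LP and 5 NP animals among the males and 5 LP and 3 NP animals among the females. All mice had received intravenous cationic ferritin, an iron tracer for magnetic resonance imaging, and were perfused with saline. Males were collected 1.5 h and females 24 h after the last injection, so sex and this interval cannot be told apart, and each sex difference below is between these collections too. No allele, transgene or drug set the groups apart, and each library came from a piece of 1 kidney of 1 animal. Which animals were littermates is not given in the sources used here, so p-values measure the spread between these libraries. Diet was given to the dams, whereas the tests treat each animal as independent. Littermates within a group could therefore make the p-values for diet too small.

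Prostanoids are made from arachidonic acid, which phospholipases release from membranes. The cyclooxygenases *Ptgs1* and *Ptgs2* turn it into prostaglandin H, and terminal synthases such as *Ptges* and *Ptgds* turn that into prostaglandin E and prostaglandin D. In the kidney, prostaglandin E acts on salt and water transport, vessel tone and renin release. Its receptors include those encoded by *Ptger1*, *Ptger3* and *Ptger4*, and *Hpgd* encodes the dehydrogenase that begins its inactivation. Lipoxygenases feed another branch in which *Ltc4s* joins glutathione to leukotriene A. Cytochrome enzymes feed a further branch, whose epoxides are hydrolysed by the soluble epoxide hydrolase *Ephx2*.

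Libraries held 14050486 to 23562411 reads on genes. The genes of the X and Y chromosomes matched the labelled sex in 18 of 18 libraries. By hierarchical clustering of 12665 genes, 3 female libraries stood apart from the other 15 at the first split, namely LP female 1, LP female 2 and NP female 3. Their summed level of 8 interferon-stimulated genes was 106 to 141 CPM (counts per 1000000 counts on genes, scaled between libraries), against 790 to 2977 CPM in the other 5 females, and results that rest on them are given with and without them. Kidney markers were present in every library: the summed level of 6 proximal tubule genes was 6250 CPM or more, and that of 5 genes of the thick ascending limb was 2071 CPM or more. In whole tissue, fewer cells of a type and less RNA per cell cannot be told apart.

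RefSeq promoter windows, 250 bases before to 50 after the start, were at hand for 8 of the 10 genes, and those of *Ephx2* and *Ptger1* were missing. The windows shown belong to the 3 genes whose level was higher in females past the test (*Hpgd*, *Ptger3* and *Ptges*) and to *Ltc4s*, whose female diet groups did not overlap. They are printed 5′ to 3′ on the gene's strand, in GRCm38.p6 coordinates, with motif matches in capitals.
*Hpgd*, chr8:56294302-56294601, plus strand: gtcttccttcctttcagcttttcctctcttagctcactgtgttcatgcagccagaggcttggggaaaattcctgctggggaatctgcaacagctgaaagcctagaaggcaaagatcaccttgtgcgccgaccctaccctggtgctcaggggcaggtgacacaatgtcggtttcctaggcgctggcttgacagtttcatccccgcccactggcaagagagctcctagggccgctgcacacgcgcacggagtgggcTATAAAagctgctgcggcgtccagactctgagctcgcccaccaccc
*Ptger3*, chr3:157566626-157566925, plus strand: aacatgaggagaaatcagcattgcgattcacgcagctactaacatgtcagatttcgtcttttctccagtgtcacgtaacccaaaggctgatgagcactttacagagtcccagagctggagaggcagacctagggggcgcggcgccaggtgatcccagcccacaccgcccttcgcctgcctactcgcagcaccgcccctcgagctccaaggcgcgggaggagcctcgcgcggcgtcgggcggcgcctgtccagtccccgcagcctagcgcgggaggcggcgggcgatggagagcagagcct
*Ptges*, chr2:30903248-30903547, minus strand: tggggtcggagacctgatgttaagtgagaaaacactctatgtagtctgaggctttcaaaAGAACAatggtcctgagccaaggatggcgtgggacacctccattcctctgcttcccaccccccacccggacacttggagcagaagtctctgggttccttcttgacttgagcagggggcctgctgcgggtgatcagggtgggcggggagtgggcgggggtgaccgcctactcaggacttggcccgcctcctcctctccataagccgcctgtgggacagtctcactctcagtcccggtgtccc
*Ltc4s*, chr11:50238483-50238782, minus strand: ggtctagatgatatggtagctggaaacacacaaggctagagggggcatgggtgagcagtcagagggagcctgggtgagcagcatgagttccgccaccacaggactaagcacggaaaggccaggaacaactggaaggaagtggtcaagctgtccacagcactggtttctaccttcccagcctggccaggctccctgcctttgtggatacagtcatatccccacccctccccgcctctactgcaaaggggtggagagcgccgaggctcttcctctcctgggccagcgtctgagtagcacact
The letters searched, on both strands and with no overlap between matches of different motifs in these windows, began with the TATA box, TATAAA, and the E-box, CACGTG. The core of the cyclic AMP element, TGACGT, was searched too. The steroid receptor half-site was searched as AGAACA. The STAT site was searched as TTCNNNGAA. The *Hpgd* window held TATAAA, found in 13.6% of 32851 windows of the same length. Its first base lies at position 5 after the annotated start, not before it. The *Ptges* window held AGAACA, found in 19% of windows. The *Ptger3* and *Ltc4s* windows held no match to these letters.

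In the diet comparisons, no member passed the test in either sex, while between the sexes 4 members did. *Hpgd* was 5.82-fold higher in females, *Ephx2* was 3.61-fold higher in males, and *Ptger3* and *Ptges* were 1.74-fold and 1.48-fold higher in females. A call is an adjusted p below 0.05 in the quasi-likelihood test of edgeR with Benjamini-Hochberg adjustment over all genes that reached 10 counts in each library of the comparison. Between the sexes, 7 of the 10 members had enough counts, and 4 of these 7 were called, beside 38.7% of all 12665 genes tested. The median absolute log2 fold change was 0.60 over the 7 members and 0.27 over all genes tested. *Ptgs2*, *Ltc4s* and *Ptger1* fell below 10 counts in at least 1 library, and their levels are given with exact permutation tests.

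**Figure D1:**
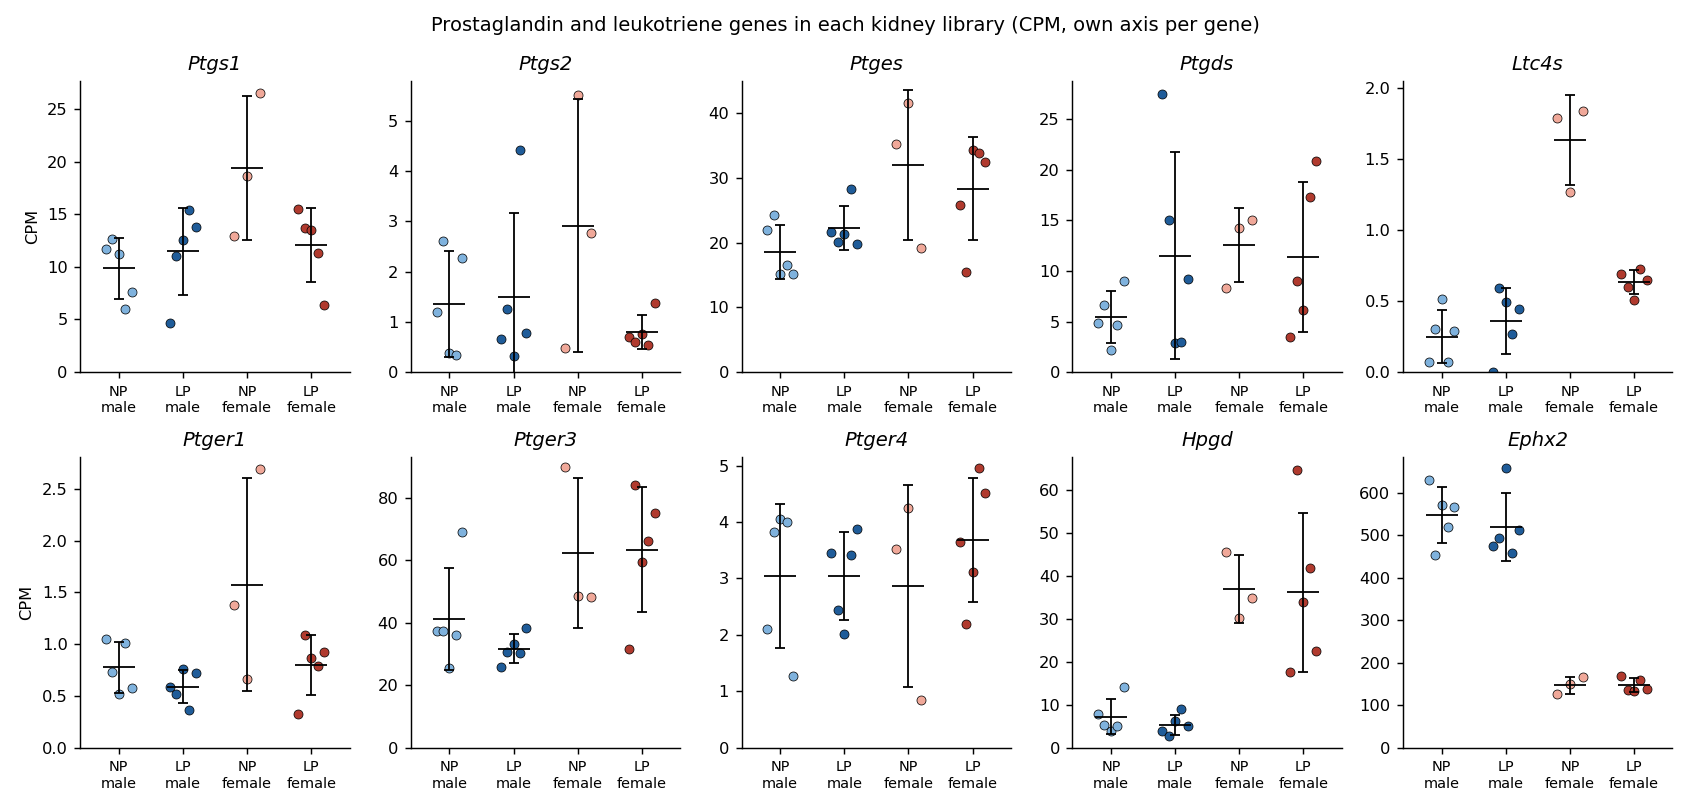
CPM of each of the 10 genes in every library, by group, with the group mean and SD as a horizontal mark and bars (cut at 0). *Hpgd* in the 8 females, 17.7 to 64.7 CPM, lies above all 10 males, *Ephx2* in the 10 males, 454 to 658 CPM, lies above all 8 females, and *Ltc4s* in the 3 NP females, 1.27 to 1.84 CPM, lies above every other library.

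*Hpgd* and *Ephx2*, the genes of breakdown, had the widest gaps between the sexes among the members. *Hpgd* (chr8:56747543-56774082, plus strand, GRCm39) stood at 3.88, 2.67, 6.17, 8.92 and 5.09 CPM in LP males and at 7.97, 5.21, 3.93, 5.15 and 14.1 CPM in NP males. LP females had 17.7, 64.7, 34.1, 41.8 and 22.6 CPM, and NP females 45.6, 30.2 and 35.0 CPM. The lowest female lay above the highest male, and within each sex the diet groups overlapped. The male minus female difference was −2.54 on the log2 scale (SE 0.29, edgeR adjusted p = 3.10e-06), which ranked 78 among the 12665 genes tested by size. With the labels exchanged within each diet, the exact permutation test gave 7.09e-05, the smallest p that its 14112 labelings allow. Groups of males and females did not overlap for 8.4% of all genes tested.

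*Ephx2* (chr14:66319338-66362011, minus strand) moved the other way. It stood at 474, 494, 658, 459 and 514 CPM in LP males and at 631, 454, 571, 519 and 565 CPM in NP males. Levels in LP females were 170, 136, 134, 160 and 139 CPM, and in NP females 126, 151 and 165 CPM. No female reached the level of any male, and the diet groups of each sex overlapped. The difference was 1.85 on the log2 scale (SE 0.10, edgeR adjusted p = 2.09e-10), with the same smallest exact permutation p of 7.09e-05. Within LP mice alone the difference was 1.82 for *Ephx2* and −2.73 for *Hpgd*, and within NP mice alone it was 1.90 and −2.33, all 4 past the test. *Ephx2* was the member with the highest level per exon length, 61.8 CPM per kb over all libraries, and its range did not overlap that of the next member, *Ptger3*.

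**Figure D2:**
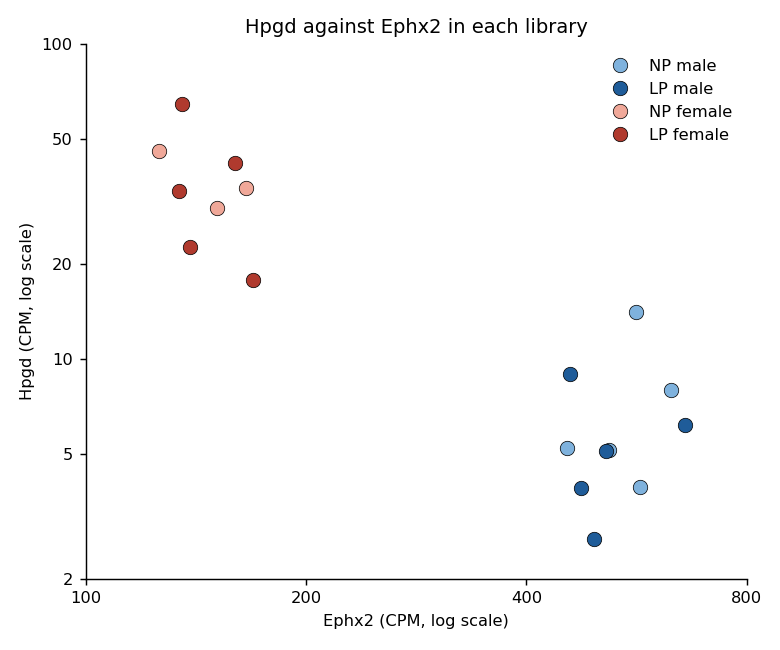
*Hpgd* against *Ephx2* in each of the 18 libraries, both in CPM on log axes, coloured by group. The 10 males (*Ephx2* 454 to 658 CPM, *Hpgd* 2.67 to 14.1 CPM) and the 8 females (*Ephx2* 126 to 170 CPM, *Hpgd* 17.7 to 64.7 CPM) form separate clouds, and LP and NP mice mix within each.

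The summed level of 6 proximal tubule genes was 10993 to 13549 CPM in males and 6250 to 11358 CPM in females. Of these 6 genes, 2 were called higher in males, and the median male minus female difference of the list was −0.08 on the log2 scale, beside 1.85 for *Ephx2*. Of 4 distal convoluted tubule genes, 4 were called higher in females, with a median of −0.87, beside −2.54 for *Hpgd*. The part of cell composition in these differences was not tested.

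The cyclooxygenases were both low. *Ptgs1* (chr2:36120438-36142287, plus strand), the constitutive form, stood at 4.69, 11, 12.6, 15.4 and 13.8 CPM in LP males and at 11.7, 12.7, 11.3, 6.03 and 7.61 CPM in NP males. Females gave 15.5, 13.7, 13.5, 11.3 and 6.33 CPM under LP and 13, 18.7 and 26.6 CPM under NP. NP females lay above all NP males, whereas LP females and LP males overlapped. The male minus female difference over both diets was −0.52 (SE 0.23, edgeR adjusted p = 0.0813) and did not pass the test. It was −0.97 in NP mice alone (adjusted p = 0.0544) and −0.06 in LP mice alone (adjusted p = 0.922). The gap between these values, the interaction of diet with sex, was −0.91 (SE 0.46, unadjusted p = 0.0612, adjusted p = 0.977). Without the 3 libraries that stood apart the sex difference was −0.27 (adjusted p = 0.421), whereas it passed without LP female 5 (adjusted p = 0.0335) or without NP female 1 (adjusted p = 0.0491).

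*Ptgs2* (chr1:149975194-149983978, plus strand), the inducible form, gave 5 to 100 reads per library. It stood at 0.660, 1.26, 0.328, 4.41 and 0.774 CPM in LP males and at 1.19, 2.60, 0.386, 0.339 and 2.27 CPM in NP males. The LP females measured 0.691, 0.596, 0.766, 0.543 and 1.37 CPM and the NP females 0.478, 5.51 and 2.76 CPM. It was above 2 CPM in 1 LP male, 2 NP males and 2 NP females, and all groups overlapped. The exact permutation test on log2 CPM gave p = 0.668 between the sexes, 0.984 for diet in males and 0.143 for diet in females, where the LP minus NP difference was −1.29. Under a looser count filter (filterByExpr of edgeR) the female difference was −1.83 (SE 0.65, unadjusted p = 0.0192, adjusted p = 0.906). The summed level of 3 genes of the macula densa, a site where *Ptgs2* is known to be induced (*Nos1*, *Pappa2* and *Avpr1a*), ran from 5.75 to 13.2 CPM in males and from 7.40 to 15.2 CPM in females. Per exon length the mean level over all libraries was 3.22 CPM per kb for *Ptgs1* and 0.292 CPM per kb for *Ptgs2*.

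*Ptges* (chr2:30779483-30820196, minus strand), the microsomal prostaglandin E synthase, was higher in females. It stood at 21.6, 20.1, 21.3, 28.2 and 19.8 CPM in LP males and at 21.9, 24.2, 15.2, 16.5 and 15.2 CPM in NP males. LP females had 25.8, 15.4, 34.3, 33.8 and 32.4 CPM, and NP females 35.2, 41.5 and 19.1 CPM. The 3 lowest females were the 3 libraries that stood apart, at 15.4 to 25.8 CPM, while the other 5 females, at 32.4 to 41.5 CPM, lay above all 10 males. The male minus female difference was −0.57 (SE 0.17, edgeR adjusted p = 0.0143; exact permutation p = 0.0209). Without the 3 libraries it was −0.83 (adjusted p = 8.90e-05). It did not pass in LP mice alone (−0.35, adjusted p = 0.261) or NP mice alone (−0.78, adjusted p = 0.0769), nor without NP female 2 (−0.45, adjusted p = 0.0515).

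The 3 libraries that stood apart also had less of 5 glucocorticoid-induced genes (215 to 462 CPM in sum, against 888 to 1278 CPM in the other 5 females) and of 4 tubular injury genes (19.6 to 24.6 CPM, against 234 to 463 CPM). The part of these states in the level of *Ptges* was not tested. *Hpgd* (17.7 to 64.7 CPM in the 3, 22.6 to 45.6 CPM in the others) and *Ephx2* (136 to 170 and 126 to 160 CPM) overlapped between these libraries.

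**Figure D3:**
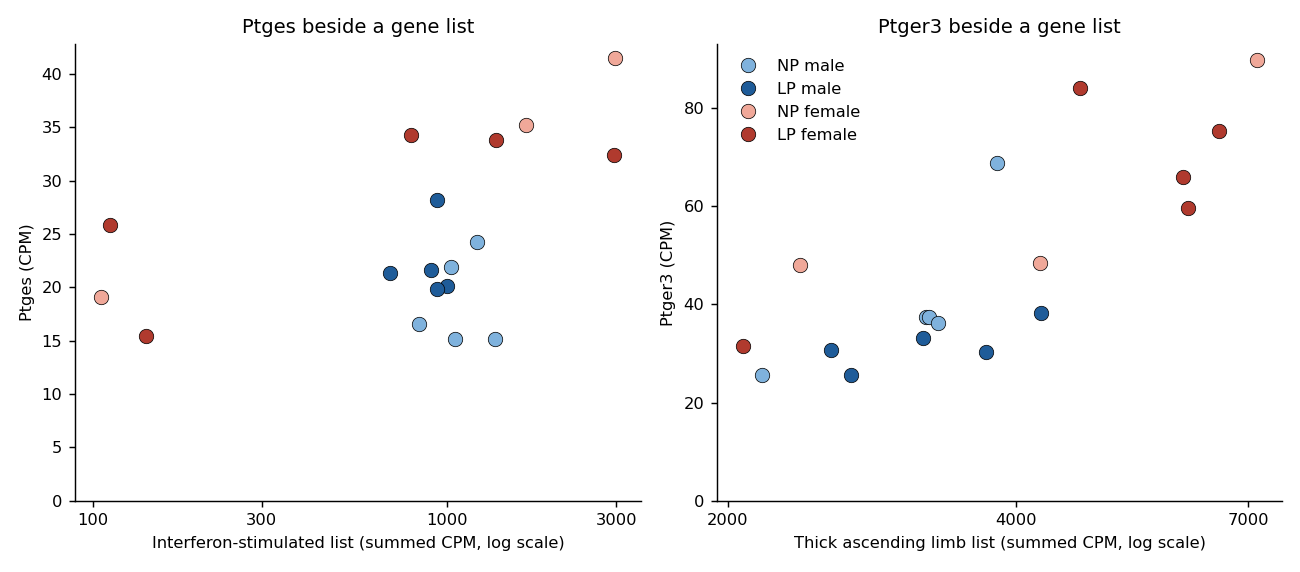
Left, *Ptges* in CPM against the summed CPM of 8 interferon-stimulated genes (log axis); right, *Ptger3* in CPM against the summed CPM of 5 thick ascending limb genes (log axis), 1 point per library, coloured by group. On the left, 3 female libraries at 106 to 141 CPM on the interferon axis have *Ptges* at 15.4 to 25.8 CPM; on the right, libraries high in the limb genes, mostly female, are also high in *Ptger3*.

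*Ptgds* (chr2:25352795-25362601, minus strand), the lipocalin-type prostaglandin D synthase, varied 12.6-fold between libraries with no order by group. It stood at 27.5, 15, 2.84, 2.97 and 9.23 CPM in LP males and at 4.82, 6.60, 2.19, 4.61 and 9.01 CPM in NP males. Levels in LP females were 3.5, 8.99, 6.18, 17.3 and 20.9 CPM, and in NP females 8.36, 14.3 and 15 CPM. The LP male group spanned both the highest level of any library and levels near the lowest. The diet difference in males was 1.05 (SE 0.58, unadjusted p = 0.0920, edgeR adjusted p = 1.00), with a 95% interval from −0.20 to 2.31, and 0.45 without LP male 1, the library with 27.5 CPM. In females it was −0.13 (SE 0.53, adjusted p = 0.970). The male minus female difference was −0.60 (SE 0.43, adjusted p = 0.295).

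*Ltc4s* (chr11:50127288-50129443, minus strand), the leukotriene C synthase, gave 0 to 30 reads per library, so its values carry wide counting error. It stood at 0, 0.593, 0.491, 0.270 and 0.442 CPM in LP males, the 0 being LP male 1, where a count of 0 allows up to 3 reads, and at 0.0699, 0.303, 0.515, 0.0677 and 0.291 CPM in NP males. Females gave 0.691, 0.596, 0.511, 0.725 and 0.646 CPM (10 to 16 reads) under LP and 1.79, 1.27 and 1.84 CPM (23 to 30 reads) under NP. Every LP female lay below every NP female. The LP minus NP difference in females was −1.35 (SE 0.26), which ranked 7 of 13510 genes by its unadjusted p of 4.73e-04, and did not pass after adjustment (edgeR adjusted p = 0.886). That p depended on the setting. In edgeR the unadjusted p was 0.0040 with filterByExpr, 0.0159 with a replicate block and 0.0252 (SE 0.54) with no filter. DESeq2 gave an unadjusted p of 5.56e-04. The exact permutation test gave p = 0.0179, the smallest that 5 against 3 libraries allow, and groups did not overlap for 2.98% of all genes tested in females. Without the 3 libraries that stood apart the difference was −1.27 (unadjusted p = 0.00905).

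In males the LP and NP groups overlapped for *Ltc4s*, and the difference on log2 CPM was 0.31 (exact permutation p = 0.667). Males held 0 to 9 reads, under the count minimum, so the interaction of diet with sex is not given for *Ltc4s*. Between the sexes, *Ltc4s* was lower in males by 1.65 on log2 CPM (exact permutation p = 1.42e-04). A noncoding gene, *Gm26542*, overlaps its exons on the opposite strand, and the libraries do not keep strand. Reads that touch both genes were counted for neither, so the *Ltc4s* count leaves them out. *Gm26542* stood at 0.546 to 1.13 CPM in LP females and 0.331 to 1.35 CPM in NP females, and these groups overlapped. Mast cells and macrophages are known sources of *Ltc4s*. The summed level of 5 mast cell genes was 0 to 0.366 CPM in males and 0.149 to 1.19 CPM in females, with 4 of the 5 (*Cpa3*, *Mcpt4*, *Cma1* and *Fcer1a*) under 10 counts in every library. The sum of 6 macrophage genes was 103 to 151 CPM in LP females and 97.3 to 129 CPM in NP females.

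Among the members that are receptors for prostaglandin E, *Ptger3* was the most abundant per exon length at 7.64 CPM per kb. *Ptger4* followed at 0.480 and *Ptger1* at 0.157 CPM per kb. *Ptger2*, a prostaglandin E receptor outside the members, gave at most 11 reads per library. *Ptger3* (chr3:157272492-157352099, plus strand), which lowers cyclic AMP in the thick ascending limb and collecting duct, stood at 25.7, 30.6, 33.1, 30.3 and 38.3 CPM in LP males and at 37.4, 37.4, 25.6, 36.2 and 68.9 CPM in NP males. The LP females measured 31.6, 84.0, 59.5, 66.0 and 75.2 CPM and the NP females 89.8, 48.5 and 48.1 CPM. Females were mostly higher, with LP female 1 inside the male range and NP male 5 inside the female range. The male minus female difference was −0.80 (SE 0.20, edgeR adjusted p = 0.00446; exact permutation p = 0.00418). It passed in LP mice alone (−0.997, adjusted p = 0.00912) and not in NP mice alone (−0.59, adjusted p = 0.231). Without the 3 libraries that stood apart it was −0.93 (adjusted p = 0.00153).

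Markers of several nephron segments were called in the same direction as *Ptger3*, beside 19.8% of all genes called higher in females. Of 5 thick ascending limb genes, 3 were called higher in females and 0 higher in males, with a median difference of −0.63. Of 7 collecting duct genes, 6 were tested and 4 were called higher in females, with a median of −0.66. Markers outside these segments had larger medians, −0.87 for the distal convoluted tubule and −0.91 for podocytes, each with 4 of 4 genes called higher in females. The summed limb genes ran from 2172 to 4246 CPM in males and from 2071 to 7143 CPM in females, and LP female 1, the female lowest in *Ptger3*, was also the lowest in this sum at 2071 CPM. NP male 5, the male highest in *Ptger3*, had the highest collecting duct sum of the males, at 1100 CPM. NP female 3 went the other way, with the highest collecting duct sum of all libraries, at 1251 CPM. Its *Ptger3* level, 48.1 CPM, was the lowest of the females apart from LP female 1, and its limb sum was 2380 CPM. The part of these segments in the *Ptger3* difference was not tested.

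*Ptger4* (chr15:5236142-5273673, minus strand), a receptor that raises cyclic AMP, stood at 1.28 to 4.05 CPM in males and 0.850 to 4.95 CPM in females, with overlap of all groups. Its male minus female difference was −0.10 (SE 0.29, edgeR adjusted p = 0.807), with a 95% interval from −0.70 to 0.50. *Ptger1* (chr8:84393264-84399384, plus strand), which signals through calcium, stood at 0.360 to 1.05 CPM in males and 0.322 to 2.69 CPM in females, from 7 to 38 reads per library. NP female 3 held the highest *Ptger1* value, and all groups overlapped (exact permutation p = 0.0574 between the sexes, 0.230 for diet in males and 0.232 for diet in females). The exons of *Ptger4* overlap those of *Ttc33* on the opposite strand, which had 8242 reads over all libraries against 1026, so the level of *Ptger4* is uncertain in these strandless libraries.

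**Figure D4:**
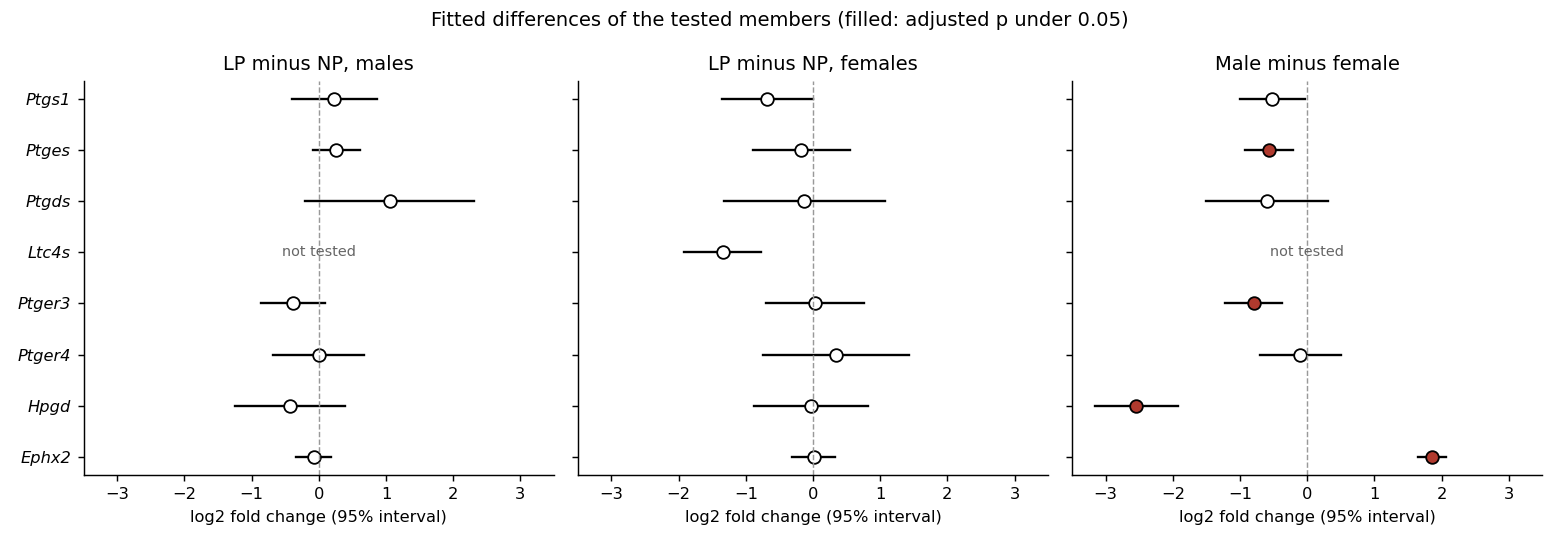
Fitted log2 fold changes of the members with enough counts, as points with 95% intervals, for LP minus NP in males, LP minus NP in females, and male minus female; filled points passed an adjusted p of 0.05. In the right panel *Ephx2* (1.85) and *Hpgd* (−2.54) lie farthest from 0, and in the diet panels no point is filled.

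For maternal diet in males, 0 of 7 members tested were called, beside 0.0379% of 13181 genes. Apart from *Ptgds*, the LP minus NP differences ran from −0.43 for *Hpgd* (95% interval −1.25 to 0.39) to 0.26 for *Ptges* (−0.09 to 0.61), with *Ephx2* at −0.08 (−0.33 to 0.18), *Ptger3* at −0.38 (−0.85 to 0.10) and *Ptgs1* at 0.23 (−0.40 to 0.86). By unadjusted p, 0 of these 7 were below 0.05, beside 3.84% of genes tested. For maternal diet in females, 0 of 8 members tested were called, beside 0.0% of 13510 genes, and by unadjusted p *Ltc4s* and *Ptgs1* were below 0.05, beside 4.17% of genes. DESeq2 called 9 genes in females and none of them was a member. *Ptgs1* was lower in LP females by a fitted −0.68 (SE 0.30, unadjusted p = 0.04997, edgeR adjusted p = 0.886), and without NP female 3, its highest library at 26.6 CPM, this was −0.39. *Hpgd* (−0.03, 95% interval −0.87 to 0.81), *Ephx2* (0.01, −0.31 to 0.32) and *Ptger3* (0.03, −0.70 to 0.76) lay near 0. For the interaction of diet with sex, 0 of 7 members were called, beside 0.0158% of 12665 genes.

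Around the members, 50 further genes of the same pathways were listed, from phospholipases to epoxide hydrolases, and 30 of them had enough counts for the sex comparison. Of these 30, 7 were called higher in males and 16 higher in females, beside 18.9% and 19.8% of all genes tested. The median male minus female difference over the 30 was −0.52. No gene of the list was called for maternal diet in either sex.

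Among the phospholipases, 1 of 5 tested was higher in males (*Pla2g6*) and 2 were higher in females. *Pla2g5*, a secreted phospholipase, was 4.49-fold higher in females (edgeR adjusted p = 1.45e-05), at 6.45 to 30.2 CPM against 1.54 to 7.04 CPM in males. Cytosolic *Pla2g4a*, the enzyme that releases arachidonic acid on calcium signals, had a difference of −0.68 (SE 0.29, edgeR adjusted p = 0.0678) and did not pass.

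Of the other prostanoid synthases, 2 of 7 tested were higher in males and 3 in females. *Cbr1*, a carbonyl reductase that can turn prostaglandin E into prostaglandin F, was 8.90-fold higher in females, at 131 to 443 CPM against 27.4 to 42.4 CPM. *Tbxas1*, the thromboxane synthase, was 2.61-fold higher (edgeR adjusted p = 0.00605), and *Ptgis*, the prostacyclin synthase, 1.93-fold. Without the 3 libraries that stood apart *Tbxas1* no longer passed (adjusted p = 0.124). *Akr1b3*, an aldose reductase with prostaglandin F synthase activity that the annotation names *Akr1b1*, was 2.20-fold higher in males, though 1 NP female reached 205 CPM. *Ptgfr*, the prostaglandin F receptor, was the receptor outside the members that was called, 1.47-fold higher in females. *Ptgdr* and *Ptgdr2*, the prostaglandin D receptors, were under 10 counts in every library.

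Of 5 genes of prostanoid transport and breakdown, 2 were higher in females, both of them transporters, and 2 were higher in males. *Abcc4*, which exports prostaglandins, was 2.53-fold higher in females, at 35.1 to 112 CPM against 18.9 to 47.3 CPM in males. *Slco2a1*, which takes prostaglandins up for breakdown by the *Hpgd* enzyme, was 1.84-fold higher. Among the reductases that act after *Hpgd*, *Ptgr1* was 1.71-fold higher in males, at 15.8 to 26.1 CPM against 8.63 to 13.9 CPM, and *Ptgr3* 1.36-fold. *Ptgr2* had a difference of 0.30 (SE 0.13, edgeR adjusted p = 0.0765) and did not pass.

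In the lipoxygenase branch, 1 of the genes tested was higher in males and 3 in females. *Ggt1*, a gamma-glutamyl transferase that trims leukotriene C, was 2.48-fold higher in males, at 1737 to 2993 CPM against 648 to 1230 CPM. *Mgst3*, a microsomal glutathione transferase, was 2.02-fold higher in females, and the lipoxygenase *Alox12* 1.90-fold. *Alox5* and *Alox5ap*, which start leukotriene synthesis, gave at most 12 and 15 reads per library, and *Alox15* and *Mgst2* stayed under 10.

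In the cytochrome branch, 1 gene was higher in males and 5 in females. *Cyp4a14*, a fatty acid hydroxylase, was 37.8-fold higher in females, at 368 to 693 CPM against 3.94 to 37.4 CPM. *Cyp2c44*, an epoxygenase that the annotation names *Cyp2c23*, was 4.01-fold higher, and *Cyp4a10* 2.08-fold. *Cyp2j5*, another epoxygenase, was 1.76-fold higher in males, the same direction as *Ephx2*, whereas microsomal *Ephx1* was 1.48-fold higher in females. *Cyp4a12a*, known as a hydroxylase of male mice, stood at 699.6 to 2453 CPM in males and at 0.348 to 17 CPM in females, and was left out of the test because some females had under 10 reads. These cytochromes belong to families of similar sequence, and STAR counts a read that aligns to several places for no gene. Reads shared by close copies were therefore left out, so these levels may be too low.

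**Figure D5:**
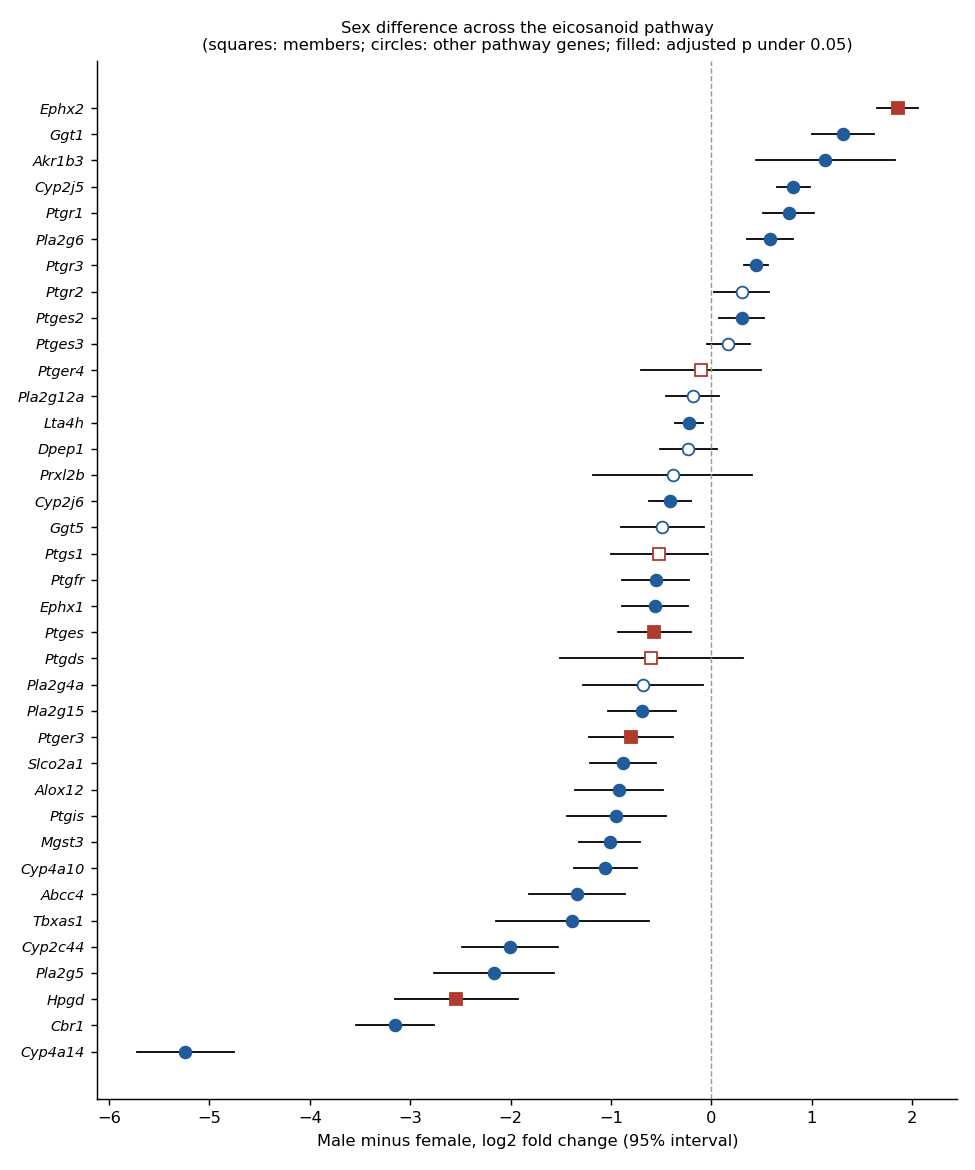
Male minus female log2 fold changes with 95% intervals for the 7 members (squares) and 30 other pathway genes (circles) with enough counts, ordered by value; filled symbols passed an adjusted p of 0.05. Values run from −5.24 for *Cyp4a14* to 1.85 for *Ephx2*, with 19 of the 37 genes called higher in females and 8 higher in males.

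After the group means were taken out, the genes whose levels over the 18 libraries were most like those of *Hpgd* were *Aqp1* (Pearson r = 0.86 on log2 CPM), *Prss12* (0.84) and *A4gnt* (0.83). Those most like *Ptger3* were *Efhd1* (0.92), *P2ry2* (0.90) and *Egfl6* (0.89), and those most like *Ephx2* were *Shmt2* (0.88), *Gjb1* (0.88) and *Def8* (0.85). *Ptges* was most like *Pprc1* (0.91), *Spry4* (0.90) and *Ccnt1* (0.86), and *Ptger4* most like *Dennd4a* (0.91), *Nrbf2* (0.91) and *Wee1* (0.90). *Ptgds* was most like *Uap1l1* (0.89), *Taf8* (0.81) and *Entpd2* (0.76), of which *Uap1l1* and *Entpd2* lie on chromosome 2 as *Ptgds* does. *Ptgs1* was most like *Zbtb49* (0.79), *Snrnp40* (0.79) and *Snx12* (0.78). These values describe the best matches of 12665 genes over 18 libraries of the same tissue that differ in depth.

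By level per exon length over all libraries, the order was *Ephx2* (61.8 ± 34.8 CPM per kb, SD, n = 18), *Ptger3* (7.64 ± 3.28), *Hpgd* (6.38 ± 5.90), *Ptges* (5.57 ± 1.81), *Ptgs1* (3.22 ± 1.29), *Ptgds* (1.34 ± 0.942), *Ltc4s* (0.595 ± 0.507), *Ptger4* (0.480 ± 0.171), *Ptgs2* (0.292 ± 0.289) and *Ptger1* (0.157 ± 0.0961). From *Ptger3* down, the range of each gene over the libraries overlapped that of the next, so the order of neighbours was not larger than their spread. The lengths join the exons of all annotated transcripts, so the order also depends on annotation. The place of *Hpgd* depended on sex. It averaged 2.04 ± 1.07 CPM per kb in males (n = 10), below *Ptgs1* at 2.75 ± 0.892, and 11.8 ± 4.74 CPM per kb in females (n = 8), beside *Ptger3* at 9.98 ± 3.14.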

How the data were processed

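Kidney RNA, taken by the protocol from a piece of the left kidney (the design text speaks of a whole kidney), was made into poly(A) libraries that keep no strand. Per the labels and the methods, the authors removed poor reads and adapters before they aligned with STAR to GRCm39 (version not given in the sources used here), which also counted reads per GENCODE vM36 gene. The deposited values are raw counts, and the strandless column was used. STAR gives a read that touches genes on both strands to neither gene in that column. Rows that name no gene held 28.6 to 36.1% of reads and were left out.

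The members and lists were chosen with earlier results of these data known. Symbols, positions and exon lengths came from GENCODE vM39, which held 78168 of the 78239 identifiers. Exon length joined the exons of all annotated transcripts of a gene (7456 bases for *Ptgds*, 5504 for *Ptger1*), so levels per exon length depend on that annotation. CPM are counts per 1000000 after TMM scaling. The main test was edgeR 4.0.16 (glmQLFit and glmQLFTest in R 4.3.3) on genes that reached 10 counts in each library of the comparison, with Benjamini-Hochberg adjustment over all genes tested. Diet was tested within each sex. The sex difference was the mean of its values in both diets in a model of 4 groups, and the interaction was the female minus the male diet effect. Single members had a two-sided exact permutation test on log2 CPM with a prior count of 2, for which the smallest p allowed is 0.00794 in males and 0.0179 in females. DESeq2 1.42.0, no count filter, filterByExpr, a replicate block, single libraries left out and the diets alone were the alternatives. The scripts were tested on simulated data with planted changes. There 97.9% of changed genes were recovered for the sex difference among 12449 genes and 79.7% for diet in females among 12581. For diet in males 89.3% were recovered among 12515 genes, and for the interaction of diet with sex 67.5% among 12465. These rates hold for the planted size of change only, and do not show how often smaller differences would be found. Depths were 14050486 to 23562411 reads on genes, at which members near 1 CPM rest on few reads with wide counting error, and floors cover counting error only. All 10 members were named, as were, of the pathway genes called, the 12 with the largest change. *Pla2g6*, *Pla2g4a*, *Ptgfr*, *Slco2a1*, *Ptgr1*, *Ptgr2*, *Ptgr3*, *Cyp2j5*, *Ephx1*, *Cyp4a12a* and the pathway genes given as low were named after their values were seen. No pair of libraries of a group was alike within counting noise (lowest chi-square per degree of freedom 12.1).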

Additional observations from a re-analysis of the deposited data

Results flagged for a closer look

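In 5 of 30 member and group combinations, 1 library lay far from the rest of its group by Dixon's test, which flags about 1 in 20 groups by chance. *Ptgs2* was 4.41 CPM in LP male 4, with the next LP male at 1.26 CPM, and 1.37 CPM in LP female 5, with the next LP female at 0.766 CPM. *Ptges* was 28.2 CPM in LP male 4, next to 21.6 CPM. *Ephx2* was 658 CPM in LP male 3, next to 514 CPM. *Ptger3* was 68.9 CPM in NP male 5, next to 37.4 CPM. LP male 4 also had the highest smooth muscle sum (166 CPM) and adipocyte sum (78.5 CPM) of the males.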

How the results depend on the processing

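Between the sexes, 4 members were called in the main test and under DESeq2, with its size factors and with a replicate block, 5 with no filter or filterByExpr (the added gene, *Ltc4s*, has 0 to 9 reads in males and entered through the females' reads, so it is not counted as support), and 3 at a 1.5-fold minimum or in LP mice alone (each without *Ptges*). In NP mice alone 2 (*Hpgd* and *Ephx2*) were called, where fewer samples enter. With single libraries left out, 3 to 5 members were called, and 0 members were called for diet in either sex or for its difference between the sexes under any alternative. Some uncalled values changed sign. For diet in males this was *Ptger4* (−0.00029 under DESeq2, −0.0022 with filterByExpr, −0.00058 with all 4 groups in 1 model). *Ptgs2* was not in the main fit for males. Its difference in mean log2 CPM there was −0.0030, a measure unlike the fitted values of 0.16 with no filter and 0.15 with filterByExpr. For diet in females these were *Ptgds* (−0.13 in the main test, 0.40 without LP female 1, LP female 2 and NP female 3), *Ptger3* (−0.039 without those 3), and *Hpgd* (0.012 with no filter). Between the sexes these were *Ptgds* (−0.60 in the main test, 0.0049 in LP mice alone) and *Ptger4* (−0.10 in the main test, 0.076 in NP mice alone). The cause was not tested.

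With single libraries left out, values ran from −0.20 to 0.12 for *Ptger4* in males. In females they ran from −0.43 to 0.083 for *Ptges*, −0.47 to 0.10 for *Ptgds*, −0.33 to 0.17 for *Hpgd*, −0.075 to 0.097 for *Ephx2*, −0.13 to 0.41 for *Ptger3* and −0.073 to 0.76 for *Ptger4*. For the difference between the sexes in diet effect they ran from −0.00036 to 0.67 for *Hpgd*, −0.026 to 0.18 for *Ephx2* and −0.085 to 0.73 for *Ptger4*, and for the sex difference from −0.33 to 0.092 for *Ptger4*.

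Same-numbered libraries of the diet pairs had a median r of −0.140 in males, where it ran from −0.272 to 0.320, and −0.251 in females. Across the sexes the median was −0.086 in LP mice and 0.225 in NP mice, where r ran from −0.246 to 0.440. These are 3 to 5 pairs of deviations from group means, so they cannot settle whether the numbers pair the mice. With the replicate block 4 members were still called between the sexes (*Ptges* adjusted p = 0.0309, edgeR), and 0 in the other comparisons, while *Ephx2* (−0.011) and *Ptger3* (−0.11) changed sign for diet in females and *Ptgds* went from −0.13 to −1.07 (unadjusted p = 0.0146, edgeR adjusted p = 1.00). For diet in males *Ptgds* was 0.71 with the block, and 0.45 to 1.31 with single libraries left out.

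Over all genes, 5 were called for diet in males, 19 under DESeq2, 9 with no filter, 2 with the block and 1 with all 4 groups in 1 model. In females 0 were called, against 9, 3, 0 and 2, and 1 without the 3 libraries that stood apart. For the difference between the sexes in diet effect 2 were called, 5 under DESeq2, 3 with no filter, 0 with the block and 0 without those libraries. For the sex difference 4900 were called, 2505 in LP mice alone and 1954 in NP mice alone. *Ltc4s*, *Ptgs2* and *Ptger1* gave at most 30, 100 and 38 reads per library, which limits what these depths can show.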

Other observations

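*Tbxa2r*, the thromboxane receptor, and *Tbxas1*, the thromboxane synthase, differed among the females. *Tbxa2r* stood at 0.543 to 10.3 CPM in LP females (median 1.01 CPM) and at 1.43 to 7.01 CPM in NP females (median 1.61 CPM). In all 10 males it stood at 0.666 to 2.67 CPM. The highest *Tbxa2r* levels of the female groups, in LP female 2 and NP female 3, lay in libraries that stood apart. *Tbxas1* reached 26.6 CPM in LP female 1, which stood apart too. These genes were picked after their values were seen, and no test was run on the difference among females. For maternal diet in males, the pathway genes with the smallest unadjusted p were *Prxl2b* (−2.13, SE 0.45, unadjusted p = 4.26e-04, edgeR adjusted p = 0.562), a prostamide and prostaglandin F synthase, and *Cyp4a14* (1.47, SE 0.31, unadjusted p = 4.98e-04, adjusted p = 0.597), neither of them called.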
